A study of Rattus norvegicus with 6 samples.

Results

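The genes of cholesterol and fatty acid synthesis were followed in cultured mesenchymal stem cells from the fat of Sprague Dawley rats. The members were 28 genes of sterol and fatty acid synthesis picked by symbol, and all 28 were found among the 21857 genes of the deposited count table. The BCAA group was given 3.432 mM branched chain amino acids (leucine, isoleucine and valine) for 12 h, and the vehicle group received vehicle over the same 12 h. Each group had 3 libraries. Cells of both groups were in 100 µM hydrogen peroxide, an oxidant, and in a high-glucose medium made without branched chain amino acids but with serum. The sources used here do not give the vehicle, the proportions of the amino acids or the origin of the replicates (separate cultures or animals). P-values therefore rest only on the differences among these 6 libraries, and part of those may be technical. No cells without hydrogen peroxide were analysed here. An excess of the amino acids and an end to their shortage cannot be told apart in this comparison.

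Cells control these pathways largely through the sterol regulatory element-binding proteins (SREBPs), transcription factors made as precursors in the membrane of the endoplasmic reticulum. When membrane cholesterol is low, the carrier SCAP moves the precursor to the Golgi, where proteases release its active part. When cholesterol is high, INSIG proteins hold SCAP back. SREBP2 chiefly drives sterol synthesis and uptake, and SREBP1c chiefly drives fatty acid synthesis and desaturation. In stromal cells of fat tissue, which have not become adipocytes, the same enzymes supply membranes and small lipid droplets.

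Library totals lay between 12725344 and 15739731 counts, and 12298 genes passed the filter on low counts. Of the 28 members, 26 passed it. The fatty acid elongase gene Elovl6 had 1 count in all, in vehicle replicate 3, and Thrsp, a lipogenic regulator found in liver and fat, had 1 count in vehicle replicate 1, so neither was tested. A count of 0 allows an expected count of up to about 3 in that library, so a low level of either gene could go unseen. Whether the annotation or mapping behind the count table lost reads of Elovl6 or Thrsp was not tested. Of 8 listed mesenchymal markers, 7 were found and all 7 were counted in every library. Thy1, for instance, averaged 361 ± 16.6 CPM with BCAA against 347 ± 4.17 CPM with vehicle (mean ± SD of 3 libraries, as are all such values below). CPM is the share of a library's TMM-scaled total, and since it is not divided by gene length it does not rank genes against each other. Of 8 listed adipocyte markers, Adipoq, Lep, Plin1, Cidec, Slc2a4 and Cfd were each under 1 CPM in every library. Pparg had 15 counts, just over 1 CPM, in BCAA replicate 1 and was under 1 CPM in the other 5 libraries, and Fabp4 lay between 3.62 and 6.34 CPM. Vehicle replicate 1 stood apart, with 6.58% of its counts on mitochondrially encoded genes beside 4.92% and 4.91% in vehicle replicates 2 and 3 (5.60% to 6.24% in the BCAA libraries), and calls that differ without it are given below with and without it.

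No member passed an adjusted p of 0.05 with edgeR's quasi-likelihood test (Benjamini-Hochberg over all genes), where 0.228% of all genes tested did (0.0569% higher, 0.171% lower). The genes closest to the threshold encode a coat protein of lipid droplets (Plin2), a fatty acid desaturase (Scd), a sterol sensor (Insig1) and the delta-5 desaturase (Fads1), and all 4 were higher with BCAA, by 1.14-fold to 1.21-fold. These 4 were the members with an unadjusted p under 0.05, and no member lower with BCAA had one. That is 15.4% of the 26 tested members, beside 5.95% of all genes that were higher and 5.84% that were lower at this p. With DESeq2 in place of edgeR, 2 members were called, Plin2 (adjusted p = 0.012) and Scd (adjusted p = 0.028), both higher, where DESeq2 called 1.03% of all genes (0.447% higher, 0.585% lower). Without vehicle replicate 1 edgeR called 5 members higher and 0 lower, where 1.86% of all genes were called higher and 2.20% lower.

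The median log2 fold change of the 26 tested members was 0.06, beside 0.0035 over all genes tested. By sign, 18 members (69.2%) were higher and 8 lower with BCAA, and 50.8% of all genes were higher. In 6 members (23.1%) every BCAA library lay above every vehicle library, against 9.29% of all genes, and in no member did every BCAA library lie below, against 8.76% of all genes. The 6 were Plin2, Scd, Insig1, Fads1, Cyp51 and Hmgcs1. Since the members were chosen with earlier results of these data known, these shares describe the list and do not test it.

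Plin2, which encodes perilipin 2, the main coat protein of small lipid droplets in cells other than adipocytes, was at 1045, 1110 and 1048 CPM in the BCAA libraries and at 842, 908 and 890 CPM in the vehicle libraries. The lowest BCAA library thus lay above the highest vehicle library. The log2 fold change was 0.28 (SE 0.06; 95% interval 0.15 to 0.41; edgeR's adjusted p = 0.071). Without vehicle replicate 1 it was 0.25, with an adjusted p of 0.0060. Of the other perilipin genes, Plin3, a more widely expressed relative, averaged 125 ± 10.3 CPM with BCAA and 126 ± 5.98 CPM with vehicle, while Plin5 had no count in any library (both named after their values were seen).

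Scd encodes stearoyl-CoA desaturase, which puts the double bond into oleate and palmitoleate. It was at 378, 370 and 381 CPM with BCAA and at 322, 305 and 318 CPM with vehicle, without overlap. The log2 fold change was 0.26 (SE 0.06; 95% interval 0.13 to 0.38; edgeR's adjusted p = 0.089), and without vehicle replicate 1 it was 0.28 with an adjusted p of 0.0033. Its paralogue Scd2, which is no member, was at 2635, 2501 and 2513 CPM with BCAA and at 2097, 2163 and 2278 CPM with vehicle, also without overlap. The log2 fold change of Scd2 was 0.23 (SE 0.06, edgeR's adjusted p = 0.15). The coding sequences of these paralogues are similar, so reads may have been split between them or lost, and they are not independent evidence.

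Insig1, whose protein retains SCAP in the endoplasmic reticulum and which is itself an SREBP target, was at 944, 1022 and 1025 CPM with BCAA and at 867, 887 and 874 CPM with vehicle. The groups did not overlap, and the vehicle libraries were the tighter group. The log2 fold change was 0.19 (SE 0.06; 95% interval 0.06 to 0.32; edgeR's adjusted p = 0.24). Fads1, the delta-5 desaturase that completes arachidonate, was at 97.7, 104.8 and 97.2 CPM with BCAA and at 91.6, 83.7 and 86.8 CPM with vehicle, again without overlap. Its log2 fold change was 0.19 (SE 0.07; 95% interval 0.04 to 0.35; edgeR's adjusted p = 0.30). Leaving out vehicle replicate 1 gave adjusted p-values of 0.0502 for Insig1 and 0.0436 for Fads1. Each of the 4 log2 fold changes kept its sign in all 11 alternatives, which changed the test, the scaling, the filter, the block or the libraries. Because the groups did not overlap for these genes, leaving out 1 library could hardly have turned a sign.

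**Figure D1:**
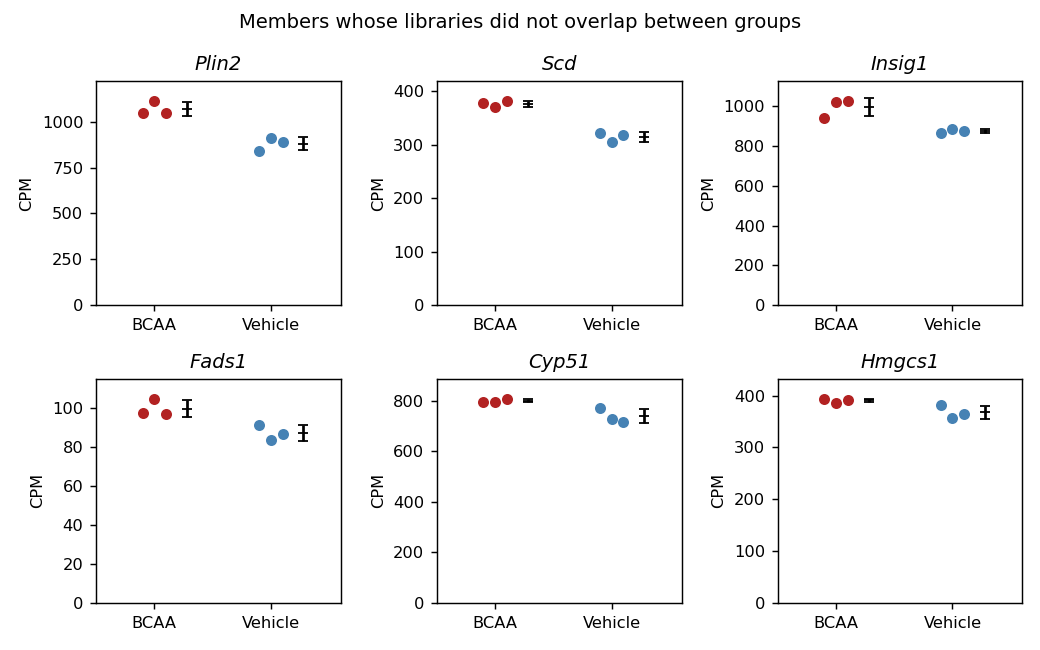
Level (CPM, linear axis from 0) of the 6 members whose libraries did not overlap between groups. Each point is a library, and the bar beside the points is the mean ± SD of 3 libraries. In each panel the 3 BCAA points lie above the 3 vehicle points, by a narrow margin for Cyp51 and Hmgcs1.

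The promoter windows of these 4 genes are shown because they are the members closest to the threshold, a choice made after their values were seen. They come from RefSeq (GRCr8, from 250 bases before to 50 bases after the annotated start) and run 5′ to 3′ on the gene's strand. Capitals mark CCAAT, the box bound by NF-Y, a partner of the SREBPs at many promoters (ATTGG where it lies on the other strand), and CACGTG, the palindromic E-box. Plin2 has 2 annotated starts, and the window with the E-box is shown.
Insig1, chr4:8057720-8058019, minus strand: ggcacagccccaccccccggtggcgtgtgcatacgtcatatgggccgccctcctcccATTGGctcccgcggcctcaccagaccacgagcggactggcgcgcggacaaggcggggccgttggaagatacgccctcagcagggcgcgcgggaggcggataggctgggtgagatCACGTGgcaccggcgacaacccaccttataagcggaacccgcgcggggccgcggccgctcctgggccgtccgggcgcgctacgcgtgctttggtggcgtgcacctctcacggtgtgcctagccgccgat
Plin2, chr5:106228969-106229268, minus strand: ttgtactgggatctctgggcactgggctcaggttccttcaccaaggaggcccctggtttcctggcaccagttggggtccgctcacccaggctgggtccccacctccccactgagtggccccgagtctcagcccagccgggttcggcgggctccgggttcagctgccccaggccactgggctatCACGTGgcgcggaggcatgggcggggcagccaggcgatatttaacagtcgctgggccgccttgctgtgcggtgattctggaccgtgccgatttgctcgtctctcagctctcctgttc
Fads1, chr1:216252442-216252741, plus strand: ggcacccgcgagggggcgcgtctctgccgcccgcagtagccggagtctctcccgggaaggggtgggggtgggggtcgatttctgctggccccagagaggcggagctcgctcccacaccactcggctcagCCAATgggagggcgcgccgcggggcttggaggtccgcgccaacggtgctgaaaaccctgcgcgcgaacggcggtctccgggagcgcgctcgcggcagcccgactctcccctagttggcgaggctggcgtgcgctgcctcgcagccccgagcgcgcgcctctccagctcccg
Scd, chr1:253231682-253231981, minus strand: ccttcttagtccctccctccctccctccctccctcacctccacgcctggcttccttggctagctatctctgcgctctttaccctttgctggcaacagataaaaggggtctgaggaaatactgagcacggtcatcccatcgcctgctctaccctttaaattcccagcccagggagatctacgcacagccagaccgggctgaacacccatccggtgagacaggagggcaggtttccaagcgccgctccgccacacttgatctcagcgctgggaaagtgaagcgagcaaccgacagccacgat

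The E-box of Insig1 begins 79 bases and that of Plin2 67 bases before the annotated start, and both stand in the same run of letters, atcacgtggc. The windows of Fads1 and Scd hold no CACGTG, and neither the window of Scd nor the one shown of Plin2 holds a CCAAT. The window at the other start of Plin2 holds 1 CCAAT and no CACGTG. Windows were matched for 21 members (23 windows) and searched on both strands. No window was matched for Fdft1, Sqle, Acaca, Fasn, Elovl6, Dgat1 or Dgat2, so these were not searched. CCAAT was in 17 of the 23 windows (73.9%), against 37.5% of all 33469 RefSeq windows of this length. CACGTG, a search added after the windows were read, was in 3 of 23 (those of Insig1, Plin2 and Sc5d), against 6.42% of all windows. TCACNCCAC, the core of the classical sterol regulatory element, was in 0 of 23 and in 1.12% of all windows. No CCAAT overlapped a CACGTG in the member windows. The RefSeq windows were not matched to those of the members for expression or base composition, so these shares describe the windows and test no enrichment. A match is a run of letters and not a measured binding site, and a missing match says only that these letters are not in this window.

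The sterol pathway from acetyl units to cholesterol was represented by 13 enzymes, all of them tested. None was called and none had an unadjusted p under 0.05, with 10 higher and 3 lower by sign and a median log2 fold change of 0.08. The 95% intervals of the 13 lay between -0.40 and 0.37, so a rise of any one of them by more than 1.29-fold lay outside its interval. Summed over the 13 enzymes, the level was 3337, 3412 and 3477 CPM with BCAA and 3442, 3198 and 3176 CPM with vehicle, and the groups overlapped through vehicle replicate 1.

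In the mevalonate steps, Hmgcs1, the synthase that makes HMG-CoA, was at 393, 387 and 392 CPM with BCAA and at 381, 357 and 364 CPM with vehicle. The BCAA libraries lay just above the vehicle libraries (log2 fold change 0.09, SE 0.06, edgeR's adjusted p = 0.60). Idi1, the isomerase of isopentenyl diphosphate, was at 147, 158 and 159 CPM with BCAA and at 163, 127 and 135 CPM with vehicle. Vehicle replicate 1 was the highest of the 6 libraries for Idi1. The log2 fold change was 0.12 (SE 0.09, edgeR's adjusted p = 0.61), and without that library it was 0.24 with an adjusted p of 0.0239. Fdps, which makes farnesyl diphosphate, averaged 672 ± 40.3 CPM with BCAA and 667 ± 64.0 CPM with vehicle. The kinase gene Mvk averaged 23.4 ± 3.87 CPM with BCAA and 25.4 ± 3.12 CPM with vehicle, and the decarboxylase gene Mvd 84.6 ± 7.52 CPM with BCAA and 91.9 ± 13.1 CPM with vehicle. Mvd had a log2 fold change of -0.12, and without vehicle replicate 1 it was -0.23 with an adjusted p of 0.0766. By sign 3 of these 5 genes were higher and 2 lower, none passed the threshold, and the signs of Mvk and Fdps turned with 1 library left out.

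Between farnesyl diphosphate and lanosterol lie squalene synthase (Fdft1), squalene epoxidase (Sqle) and lanosterol synthase (Lss). Sqle was at 173, 183 and 168 CPM with BCAA and at 170, 162 and 166 CPM with vehicle, and the groups overlapped. Fdft1 averaged 180 ± 11.1 CPM with BCAA and 174 ± 13.9 CPM with vehicle. Lss was at 92.6, 92.1 and 88.6 CPM with BCAA and at 72.0, 92.9 and 91.9 CPM with vehicle, where vehicle replicate 1 alone was low. The log2 fold change of Lss was 0.09 with all libraries and -0.02 without vehicle replicate 1.

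From lanosterol to cholesterol, Cyp51, the lanosterol demethylase, was at 795, 796 and 807 CPM with BCAA and at 770, 727 and 717 CPM with vehicle. The groups did not overlap, and the BCAA libraries were the tighter group (log2 fold change 0.11, SE 0.06, edgeR's adjusted p = 0.47). Sc5d, the desaturase of the sterol ring, was at 229, 217 and 223 CPM with BCAA and at 225, 188 and 201 CPM with vehicle. Vehicle replicate 1 lay among the BCAA libraries, and without it the log2 fold change of Sc5d was 0.20 in place of 0.13 and the adjusted p 0.0410 in place of 0.52. Msmo1, the methylsterol oxidase, averaged 434 ± 14.1 CPM with BCAA and 429 ± 9.07 CPM with vehicle. Nsdhl, which removes the carbon groups that Msmo1 oxidizes, averaged 129 ± 3.79 CPM with BCAA and 134 ± 15.4 CPM with vehicle, and its sign was positive without vehicle replicate 1 (log2 fold change 0.04). Dhcr7, the reductase that completes cholesterol, averaged 52.1 ± 5.66 CPM with BCAA and 47.1 ± 5.79 CPM with vehicle. Its log2 fold change was 0.14, and 0.06 without vehicle replicate 1.

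The transcripts of the SREBPs themselves showed no called difference. Srebf2, the gene of SREBP2, was at 156, 155 and 148 CPM with BCAA and at 133, 154 and 161 CPM with vehicle, with vehicle libraries on either side of the BCAA libraries (log2 fold change 0.04, SE 0.08, edgeR's adjusted p = 0.88). Srebf1, the gene of SREBP1a and SREBP1c, was at 73.4, 86.2 and 85.2 CPM with BCAA and at 66.5, 79.6 and 85.7 CPM with vehicle, and the groups overlapped (log2 fold change 0.08, SE 0.10, edgeR's adjusted p = 0.80). The sign of each was negative without vehicle replicate 1, at -0.04 for Srebf2 and -0.01 for Srebf1. SREBP activity is set by cleavage of the protein, which these counts do not measure.

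**Figure D2:**
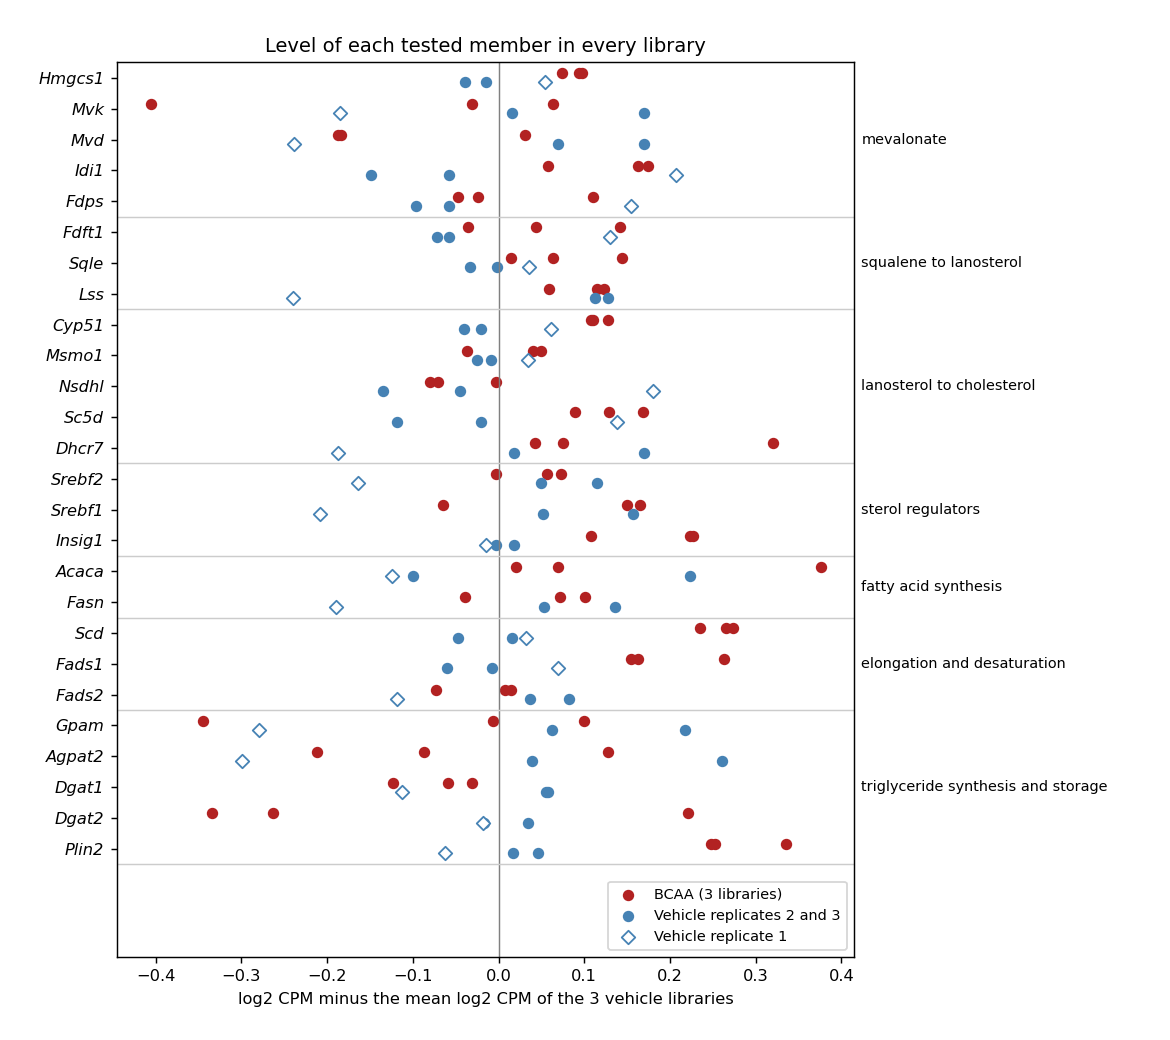
Level of each of the 26 tested members in every library, as log2 CPM minus the mean of the 3 vehicle libraries. Red points are BCAA libraries, filled blue points are vehicle replicates 2 and 3, and the open diamond is vehicle replicate 1. The diamond is the highest vehicle point for 11 members and the lowest for 15.

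Fatty acid synthesis begins with acetyl-CoA carboxylase (Acaca) and fatty acid synthase (Fasn). Acaca was at 42.6, 34.4 and 33.3 CPM with BCAA and at 30.1, 30.6 and 38.3 CPM with vehicle, and the groups overlapped (log2 fold change 0.16, SE 0.12, edgeR's adjusted p = 0.64). Fasn was at 361, 353 and 327 CPM with BCAA and at 295, 349 and 370 CPM with vehicle, where the vehicle libraries spanned all BCAA libraries (log2 fold change 0.04, SE 0.08, edgeR's adjusted p = 0.89). Without vehicle replicate 1 the log2 fold change of Fasn was -0.05. Fads2, the delta-6 desaturase that acts before Fads1, averaged 70.7 ± 2.36 CPM with BCAA and 71.7 ± 5.16 CPM with vehicle (log2 fold change -0.02, 95% interval -0.18 to 0.15). Summed over the desaturases and the elongase, the level was between 546 and 548 CPM in the BCAA libraries and between 462 and 481 CPM in the vehicle libraries, and Scd gave most of the counts in that sum.

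Among the 4 members that encode enzymes building triglyceride, none was called and all had a negative sign. It turned for Gpam, Agpat2 and Dgat2 with 1 library left out (to at most 0.036, 0.068 and 0.0052). Of 10 other tested genes of triglyceride synthesis, droplets and lipolysis, 5 were higher and 5 lower by sign. Their log2 fold changes ran from -0.20 to 0.51. Gpam, the mitochondrial glycerol-3-phosphate acyltransferase, averaged 8.37 ± 1.32 CPM with BCAA and 8.90 ± 1.54 CPM with vehicle. Agpat2, the acyltransferase of the next step, averaged 20.5 ± 2.49 CPM with BCAA and 21.5 ± 4.14 CPM with vehicle. For the last step, Dgat1 was at 121, 124 and 116 CPM with BCAA and at 117, 132 and 131 CPM with vehicle, overlapping through vehicle replicate 1 (log2 fold change -0.07, SE 0.07, edgeR's adjusted p = 0.74). Dgat2 was at 6.95, 4.69 and 4.93 CPM with BCAA and at 5.87, 6.09 and 5.88 CPM with vehicle, so 2 BCAA libraries lay below and 1 above all vehicle libraries. The difference between these enzymes and Plin2, which coats the droplet, was not tested.

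**Figure D3:**
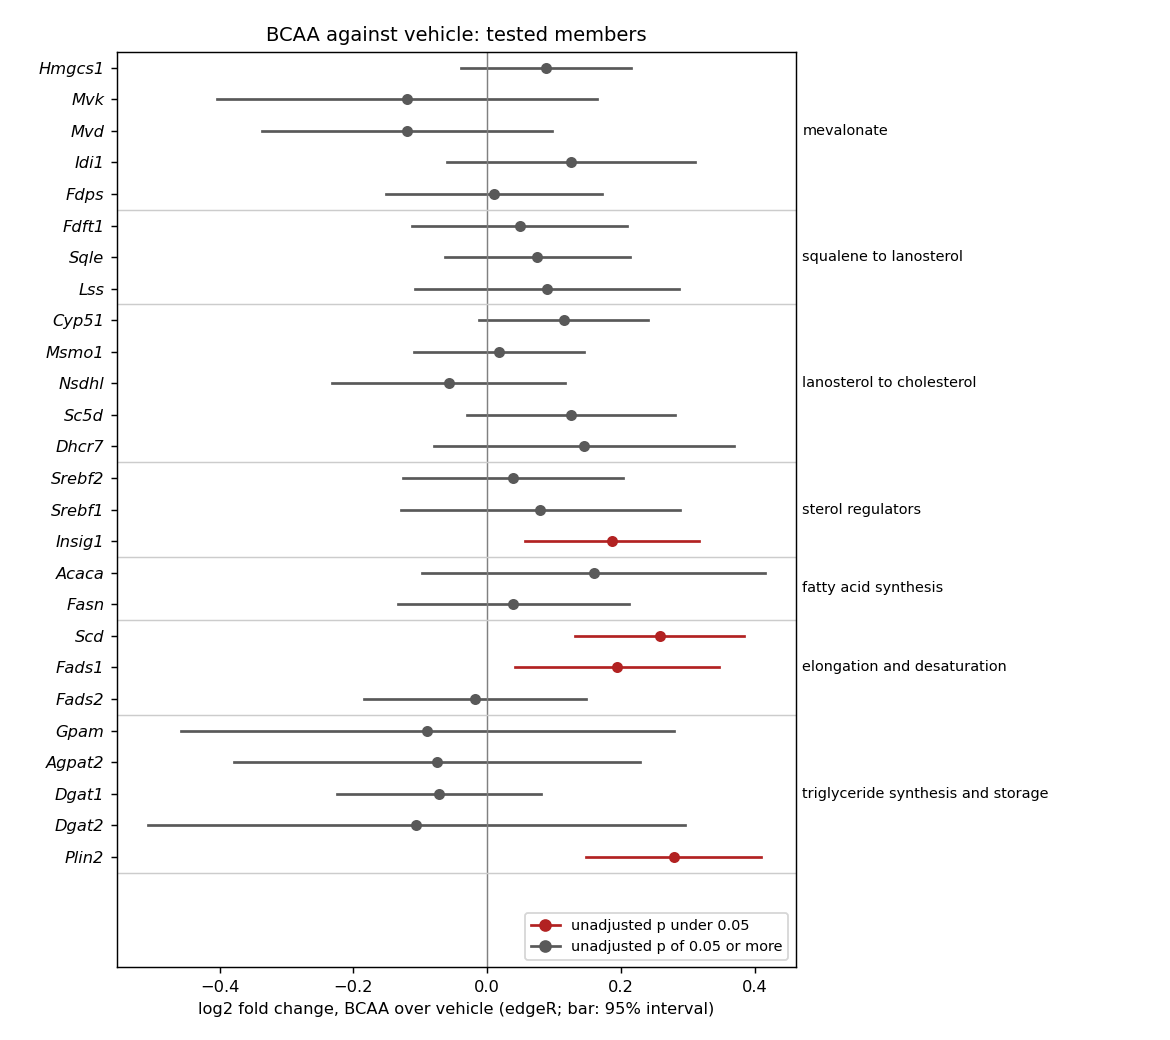
Log2 fold change, BCAA over vehicle, of the 26 tested members with its 95% interval (edgeR, 3 libraries per group), ordered by role. The intervals of Insig1, Scd, Fads1 and Plin2 (red, unadjusted p under 0.05) lie above 0, and those of the other 22 members include 0.

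Vehicle replicate 1 differed from the other vehicle libraries in the members in both directions. For 9 of the 13 sterol enzymes it was the highest vehicle library and for 4 the lowest, while over all genes tested it was the highest for 39.5% and the lowest for 40.2%. Its log2 level lay above the mean of the other vehicle libraries by 0.31 for Idi1, 0.27 for Nsdhl and 0.23 for Fdps. For Mvd, Lss, Agpat2 and Gpam the corresponding differences were -0.36, -0.36, -0.45 and -0.42, and for Srebf1 and Srebf2 they were -0.31 and -0.25. The part of RNA quality or mitochondrial content in these differences was not tested. Without that library the called members were Scd, Plin2, Idi1, Sc5d and Fads1, all higher. The median of the members was 0.05 without it, with 15 higher and 11 lower by sign, so more calls went with fewer positive signs. Beside the 5 members whose sign turned, 13 moved by over 1.5 times with the same sign and 8 by less. Leaving out any one of the other 5 libraries called 0 members.

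**Figure D4:**
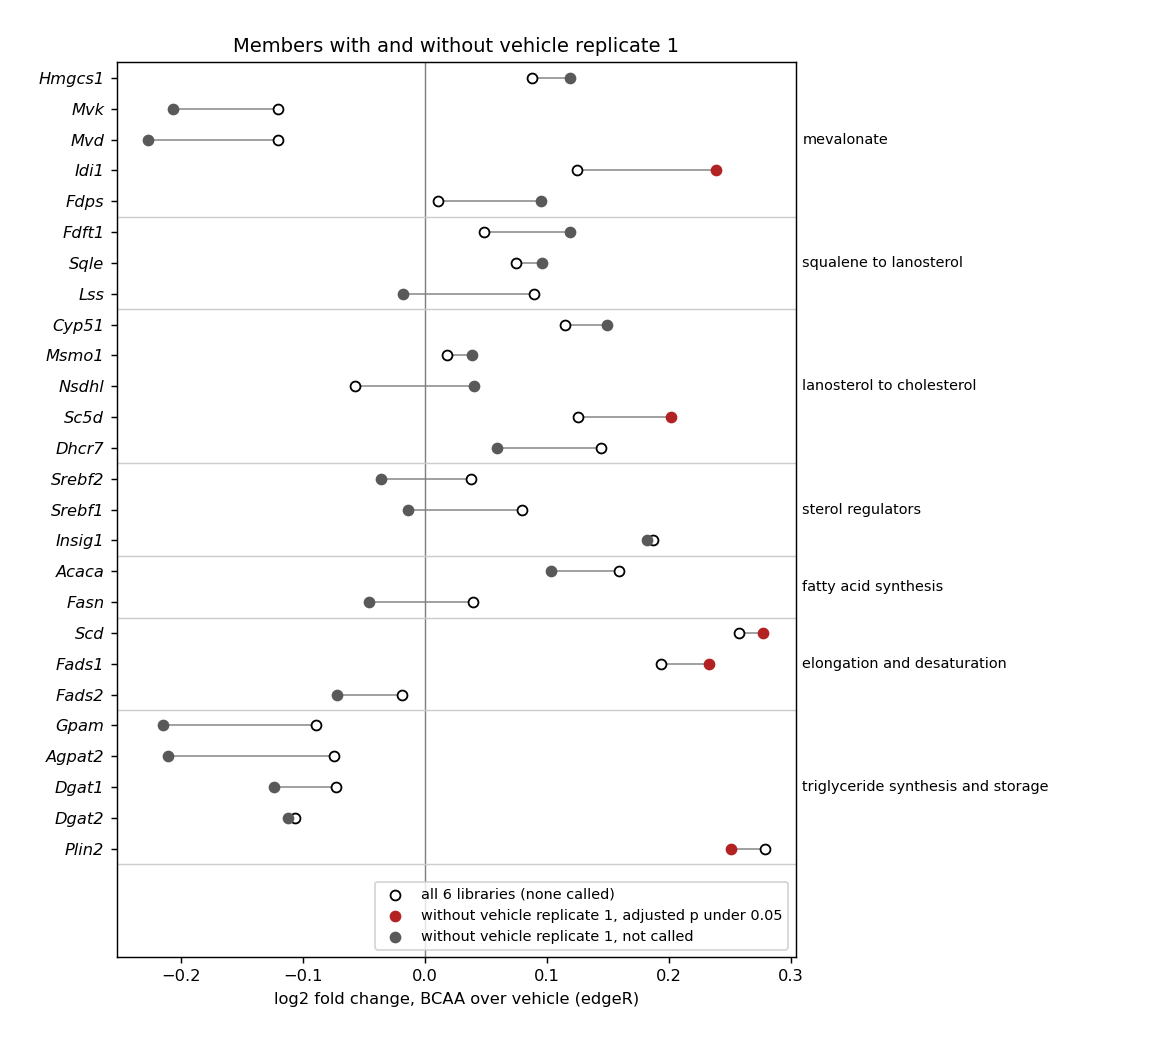
Log2 fold change, BCAA over vehicle, of each tested member with all 6 libraries (open circles) and without vehicle replicate 1 (filled circles; red where edgeR's adjusted p is under 0.05). Idi1 is at 0.12 and 0.24 and Sc5d at 0.13 and 0.20, while Lss, Srebf1, Srebf2, Fasn and Nsdhl lie on opposite sides of 0 in the 2 fits.

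Of 52 other genes of the same pathways, all were in the table and 45 were tested, and none was called in either direction. Their median log2 fold change was 0.05, with 30 higher and 15 lower by sign. In 5 of the 45 (11.1%) every BCAA library lay above every vehicle library, against 9.29% of all genes. In 1 every BCAA library lay below, against 8.76% of all genes. The 5 were Lpin1, Gpat3, Scd2, Acsl4 and Mylip, and the 1 was Nr1h3. At an unadjusted p under 0.05 there were 5 higher (11.1%, beside 5.95% of all genes) and 2 lower (4.44%, beside 5.84% of all genes), and with DESeq2 0 were called, where it called 1.03% of all genes. Without vehicle replicate 1, 4 were called, namely Scd2 and Acsl4 higher and Agpat1 and Scap lower (the last 2 named after their values were seen), where 1.86% of all genes were called higher and 2.20% lower. The 7 not tested were Acacb, Mlxipl, Plin1, Plin4, Plin5, Pnpla2 and Cidec. Pnpla2, for instance, had 2 counts, both in BCAA replicate 2. Whether the annotation or mapping behind the count table lost reads of these genes was not tested.

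Among the other sterol synthesis genes, 7 of 8 were higher by sign. Tm7sf2, a sterol ring reductase, averaged 64.2 ± 4.56 CPM with BCAA and 53.5 ± 8.51 CPM with vehicle (log2 fold change 0.26, SE 0.11, edgeR's adjusted p = 0.36), and 0.14 without vehicle replicate 1. Acat2, the acetyl-CoA acetyltransferase that feeds the mevalonate pathway, averaged 101 ± 4.53 CPM with BCAA and 92.6 ± 4.63 CPM with vehicle.

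In sterol sensing, uptake and export, the gene with the smallest p was Nr1h3, which encodes the oxysterol receptor LXR alpha. It was at 6.75, 9.31 and 8.77 CPM with BCAA and at 11.5, 10.1 and 10.3 CPM with vehicle, without overlap (log2 fold change -0.36, SE 0.15, edgeR's adjusted p = 0.38). Mylip, an LXR target that degrades lipoprotein receptors, averaged 14.6 ± 1.68 CPM with BCAA and 12.5 ± 0.836 CPM with vehicle, without overlap (log2 fold change 0.23, SE 0.13, edgeR's adjusted p = 0.51). In fatty acid supply, Acly, the enzyme that makes cytosolic acetyl-CoA from citrate, averaged 474 ± 14.4 CPM with BCAA and 427 ± 47.0 CPM with vehicle (log2 fold change 0.15, SE 0.08, edgeR's adjusted p = 0.47). Vehicle replicate 1 was the lowest library for Acly at 374 CPM, and without it the log2 fold change was 0.07. Acss2, which makes acetyl-CoA from acetate, had a log2 fold change of 0.09 (SE 0.09).

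Beside Scd2, described above, the smallest p in fatty acid elongation and activation was that of Acsl4, which activates arachidonate and other polyunsaturated fatty acids. It was at 629, 590 and 610 CPM with BCAA and at 587, 513 and 534 CPM with vehicle, without overlap (log2 fold change 0.16, SE 0.07, edgeR's adjusted p = 0.35). In triglyceride synthesis the largest difference was that of Lpin1, the phosphatidate phosphatase lipin 1. It was at 13.6, 10.4 and 11.5 CPM with BCAA and at 8.67, 6.98 and 9.33 CPM with vehicle, and the groups did not overlap. Its log2 fold change was 0.51 (SE 0.16; 95% interval 0.18 to 0.85; edgeR's adjusted p = 0.19). Gpat3, an acyltransferase of the endoplasmic reticulum, was at 10.3, 9.06 and 11.3 CPM with BCAA and at 6.88, 8.63 and 7.52 CPM with vehicle, without overlap, with a log2 fold change of 0.41 (SE 0.15, edgeR's adjusted p = 0.32). Agpat1, an acyltransferase of the same step as Agpat2, averaged 98.4 ± 7.37 CPM with BCAA and 113 ± 12.5 CPM with vehicle, and the groups overlapped (log2 fold change -0.20, SE 0.09, edgeR's adjusted p = 0.39). Without vehicle replicate 1 the adjusted p was 0.0363 for Agpat1, 0.0668 for Lpin1 and 0.278 for Gpat3.

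**Figure D5:**
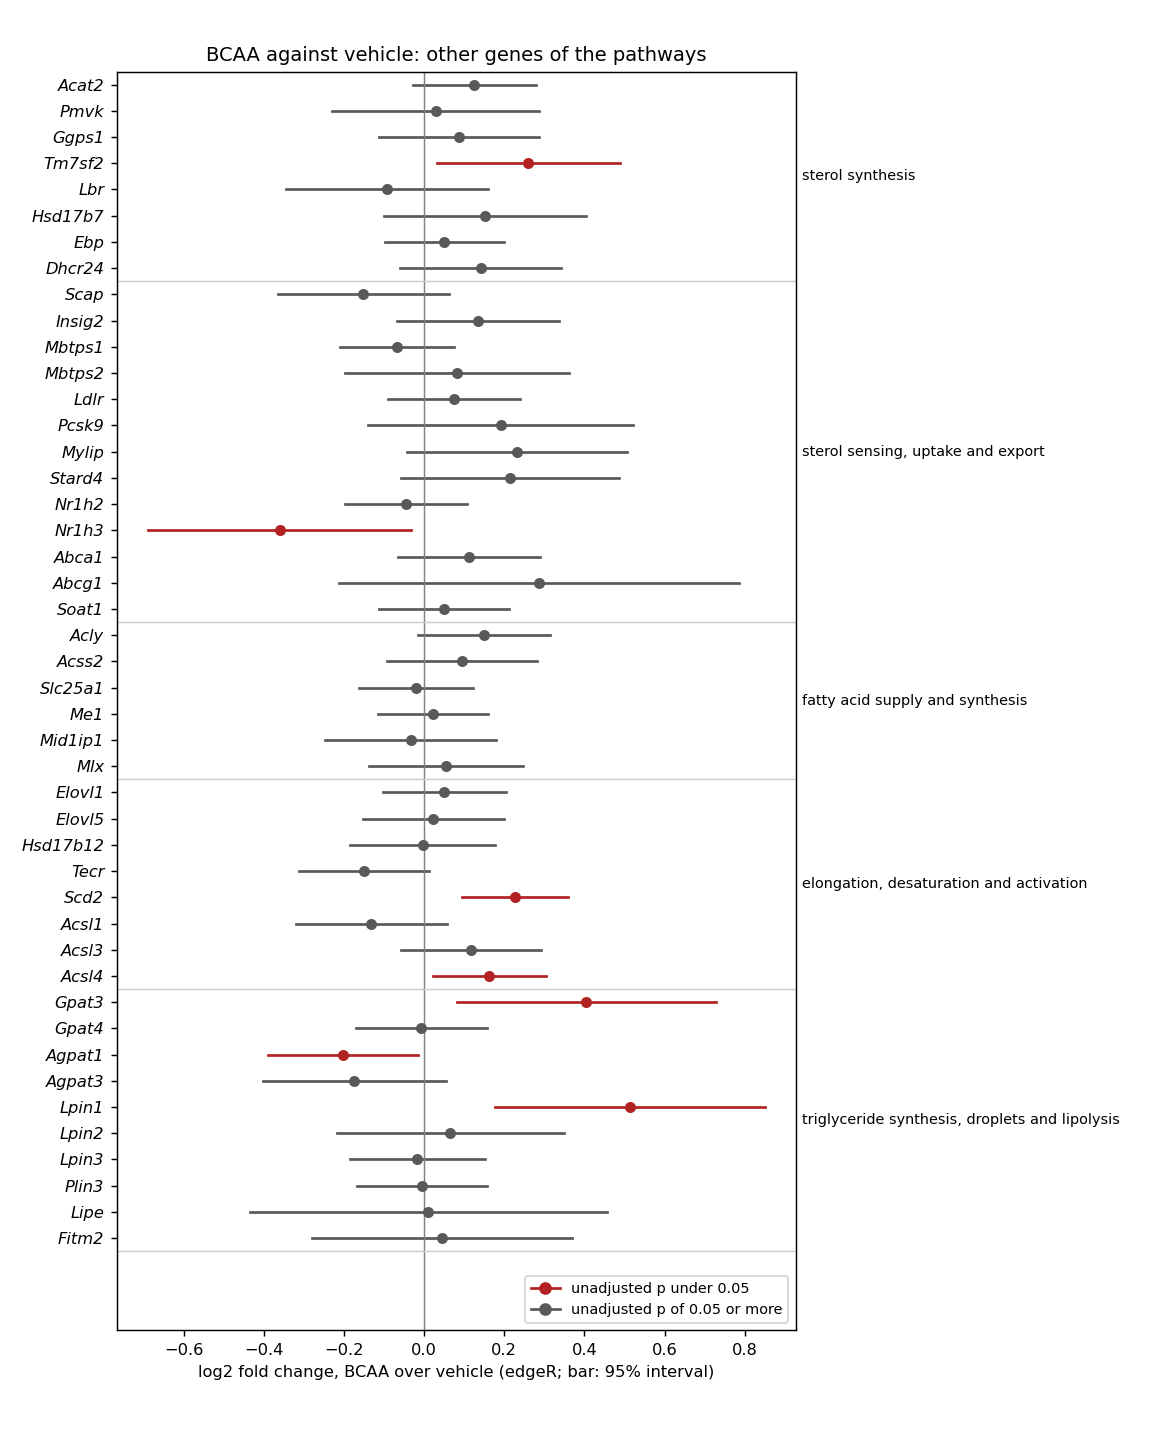
Log2 fold change, BCAA over vehicle, of the 45 tested genes of the same pathways that are no members, with its 95% interval (edgeR, 3 libraries per group). Red marks an unadjusted p under 0.05. The intervals of Lpin1, Gpat3, Scd2, Tm7sf2 and Acsl4 lie above 0 and those of Nr1h3 and Agpat1 below 0.

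Genes listed as markers of other cell types were counted as follows, and bulk counts do not show which cells made their RNA. Summed over 8 adipocyte markers, the level was 8.44, 7.03 and 7.59 CPM with BCAA and 6.37, 4.89 and 6.50 CPM with vehicle. The groups did not overlap in this sum, which was not tested, and 9.29% of all genes lay apart in that direction. Fabp4 (5.88 ± 0.397 CPM with BCAA and 4.60 ± 0.849 CPM with vehicle) gave most of those counts and was not called (log2 fold change 0.36, edgeR's adjusted p = 0.48). The 6 macrophage and leukocyte markers summed to between 108.5 and 115 CPM with BCAA and between 103 and 109 CPM with vehicle. The 4 endothelial markers measured summed to between 3.36 and 4.93 CPM with BCAA and between 4.08 and 5.52 CPM with vehicle. The 5 smooth muscle and pericyte markers summed to between 91.4 and 95.5 CPM with BCAA and between 122 and 129 CPM with vehicle, among them Acta2, which fell (edgeR's adjusted p = 0.00059), while the pericyte marker Rgs5 was under 1 CPM in every library. Their part in the differences of Plin2, Scd, Insig1 and Fads1 was not tested, and in bulk RNA fewer cells of a type and less RNA per cell cannot be told apart.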

How the data were processed

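The deposited table gives read counts by gene symbol in 6 libraries, deposited by the authors without normalization or pooling. The submitters' processing notes name Trimmomatic, FastQC, STAR, HTSeq and build rn6. Tool versions, the annotation and the strand setting were not given in the sources used here, so overlapping and antisense genes may share reads. Columns were matched to libraries by title. Counts were tested with edgeR 4.0.16 (quasi-likelihood, robust, R 4.3.3), with TMM scaling, filterByExpr (minimum count 10, minimum total 15), the group as the only term and Benjamini-Hochberg adjustment over all 12298 tested genes. SE is the log2 fold change divided by the square root of F, and 95% intervals use the test's degrees of freedom. Depth was 12725344 to 15739731 counts per library, and intervals cover the spread between libraries.

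Members and lists were chosen with earlier results of these data known, and 1 gene of the other list is not reported here. Named genes are all members and, in each role of the other list, the 2 with the smallest p and any called. Plin3, Plin5, Agpat1 and Scap were added after their values were seen. No pair of libraries was a copy of another (chi-square per degree of freedom 2.65 to 18.1 over genes with at least 10 counts). In a simulation of the BCAA against vehicle comparison on 12298 genes, 200 of them changed, the share found by edgeR was 30% for a 1.25-fold change, 76% for 1.5-fold and 94% for 2-fold, and 7 unchanged genes were called. The changed genes, 50 per size of change, were drawn only from genes above a limit on the expected count. The simulated libraries varied independently, with none set apart as vehicle replicate 1 was, so these shares may differ for the measured libraries. Alternatives were DESeq2 1.42.0, other scaling, no filter, a replicate block and each library left out. Promoter windows came from RefSeq (GRCr8), and no coordinates were converted.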

Additional observations from a re-analysis of the deposited data

How the results depend on the processing

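The number of genes called over all genes was 28 (7 higher, 21 lower). It was 127 with DESeq2, 124 with no filter on low counts and 6 with the replicate number as a block, and it ran from 7 to 500 with 1 library left out, the 500 without vehicle replicate 1. Members called were 0, with 2 under DESeq2, 1 (Plin2) without the low-count filter, and 0 to 5 with 1 library left out. Other pathway genes called were 0, and 0 to 4 with 1 library left out. The median log2 fold change of the members was 0.062 in the block fit and between 0.039 and 0.092 in all 11 alternatives. Each lay within 0.032 (SD between libraries of a group) of the value with all 6 libraries, but these fits share libraries with the main fit. The 0.092 came from the fit without scaling factors, where the median over all genes tested was 0.033, beside 0.0035 in the main fit.

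The labels name no animal or day shared by libraries of the same replicate number. The correlations of same-numbered libraries' deviations from their group means were -0.066, 0.11 and -0.15. Those of different-numbered libraries ran from -0.083 to 0.15. Totals were alike by number, at 14482260 (BCAA) and 14484051 (vehicle) counts for replicate 1. They were 15654060 and 15739731 for replicate 2, and 12802663 and 12725344 for replicate 3. With 3 libraries per group, these correlations cannot decide whether the libraries were paired. The block called 0 members.

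Of the 26 tested members, 15 kept their sign in all 11 alternatives. Without scaling factors Fads2 had a log2 fold change of 0.010. With 1 library left out, the log2 fold change of 11 members ran across 0. It was -0.22 to 0.0069 for Mvk, -0.040 to 0.095 for Fdps, -0.017 to 0.15 for Lss and -0.12 to 0.041 for Nsdhl. It was -0.036 to 0.096 for Srebf2, -0.014 to 0.16 for Srebf1, -0.046 to 0.11 for Fasn and -0.072 to 0.023 for Fads2. It was -0.21 to 0.036 for Gpam, -0.21 to 0.068 for Agpat2 and -0.31 to 0.0052 for Dgat2. Adjusted p-values over all fits ran from 0.0060 to 0.39 for Plin2, 0.0033 to 0.35 for Scd, 0.0502 to 0.55 for Insig1 and 0.044 to 0.61 for Fads1. The cause of these changes was not tested. Gpam and Dgat2 had the fewest counts among the tested members.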
